A study of Homo sapiens with 20 samples.

Results

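The genes TOP2A (ENSG00000131747), MKI67 (ENSG00000148773), CCNB1 (ENSG00000134057), CCNA2 (ENSG00000145386), CDK1 (ENSG00000170312), PLK1 (ENSG00000166851), AURKA (ENSG00000087586), CENPF (ENSG00000117724), TPX2 (ENSG00000088325) and BUB1B (ENSG00000156970) act in mitosis and cell proliferation, and were examined in libraries of RNA recovered with the RNA-binding protein IGF2BP3. They were chosen by name through their identifiers in the authors' gene count table, and all 10 are among its 19962 genes. The choice goes by name with no threshold on a measured value, and was made with earlier results of these data known.

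Mitosis is driven by a cyclin-dependent kinase, CDK1, that is switched on by cyclin partners and supported by further kinases which separate the centrosomes, build the spindle and hold back chromosome segregation until every chromosome is attached. The messages of these genes are made mainly between S phase and mitosis and fall after division. IGF2BP3 is an oncofetal RNA-binding protein found on many mature messages, often in their untranslated ends, and is known for holding target messages back from decay.

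The method was PAR-CLIP, in which cells take up the uridine analogue 4-thiouridine, ultraviolet light links it to bound protein, the protein is immunoprecipitated and linked bases show up as T-to-C changes in sequencing. Every sample came from a Tet-OsTIR1-PURO derivative of HCT116, a line of human colorectal carcinoma, and received 100 µM 4-thiouridine for 15 h and 0.15 J/cm2 of light at 365 nm. The 20 libraries span 5 conditions, each with 3 libraries of an anti-IGF2BP3 antibody and 1 of control IgG. Endoplasmic reticulum stress was induced with tunicamycin (TM), which blocks N-linked glycosylation, at 5 µg/mL for 1 h or 4 h, against DMSO for 4 h. Oxidative stress was induced with arsenite (called arsenate in the treatment protocol) at 250 µM for 2 h, against PBS for 2 h. Nothing in the labels says that libraries of a condition came from separate cultures, so the p-values measure the spread between libraries only.

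Depth was low and uneven. Gene counts per anti-IGF2BP3 library ran from 130478 (PBS replicate 2) to 1568406 (TM 4 h replicate 3), and those of the IgG libraries from 5981 to 17503. Library names place all PBS and arsenite libraries in one set and the DMSO and TM libraries in other sets, so that set, vehicle and duration cannot be told apart between PBS and DMSO. Of markers fixed by name and read from clusters (runs of crosslinked reads called by the authors), 1 to 7 of 7 colorectal epithelial genes held a cluster in each anti-IGF2BP3 library, while 0 of 4 genes of leukocytes, fibroblasts and endothelium did in any. A count here rises with the amount of a message as well as with its binding, and no input RNA was analysed here, so more message, more bound protein per message and more cells in a cycle phase cannot be told apart.

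Sites of 6 of the genes show what was recovered from the 10 genes. Each is the 30-base stretch, 5′ to 3′ on the strand of the message in GRCh38 (hg38) coordinates, around the position that lay in a cluster in the most anti-IGF2BP3 libraries of that gene. Capitals mark CATA, CATC or CATT, searched on that strand because CAU followed by A, C or U is a known preference of IGF2BP proteins.
MKI67: taactcgttCATCttCATTtactttccact
TPX2: tttctccagacttttacctacccgtgcctg
CCNA2: acaatCATTtctgaatacagaagttgtggc
CDK1: ctcaactccagttgaCATTtggagtatagg
PLK1: cccgcccaacCATTaacgagctgcttaatg
AURKA: gtgtgccttaacctccctattcagaaagct
These sites lie at chr10:128098135-128098164 (minus strand, MKI67), chr20:31801180-31801209 (plus, TPX2), chr4:121817526-121817555 (minus, CCNA2), chr10:60791943-60791972 (plus, CDK1), chr16:23683928-23683957 (plus, PLK1) and chr20:56369990-56370019 (minus, AURKA). Whether they are exonic or in an untranslated region was not worked out, since no exon annotation was used here. The MKI67 site lay in a cluster in 14 of 15 anti-IGF2BP3 libraries, all but PBS replicate 2, with 509 reads in all, and it lies 1476 bases before the end of the gene. The TPX2 site was shared by 12 libraries with 249 reads, the CCNA2, CDK1 and PLK1 sites by 10 libraries each, and the AURKA site by 9. None of the 3 motifs occurs in the TPX2 and AURKA windows, and the same holds for the best shared windows of TOP2A and BUB1B, while those of CCNB1 and CENPF hold 1 and 3 copies of CATC.

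Under arsenite, 9 of the 10 genes rose in IGF2BP3 libraries relative to PBS, the exception being AURKA. Together the 10 genes made up 1121, 1065 and 1247 counts per 1000000 in the PBS libraries and 2029, 2066 and 2328 in the arsenite libraries. The values of the groups did not overlap. Against DMSO, 0 of the 10 passed the test at either tunicamycin time. Of all genes tested only 0.551% passed at 1 h and 5.11% at 4 h, so 0 of 10 is near the background. The median log2 change of the 10 genes was 0.94 under arsenite, beside -0.00 for all 6642 genes tested.

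The count under arsenite has to be read against a background in which arsenite moved many genes. Of all genes tested, 34.8% passed an adjusted p of 0.05 in either direction and 17.6% rose. The test was the quasi-likelihood test of edgeR, adjusted after Benjamini and Hochberg over all genes tested. In the levels given as CPM (counts per 1000000, scaled by TMM factors), 8 of the 10 genes had every arsenite library above every PBS library, as did 21% of all 7558 genes compared. CPM compare 1 gene across libraries and not 1 gene with another, since transcript length is not taken into account.

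**Figure D1:**
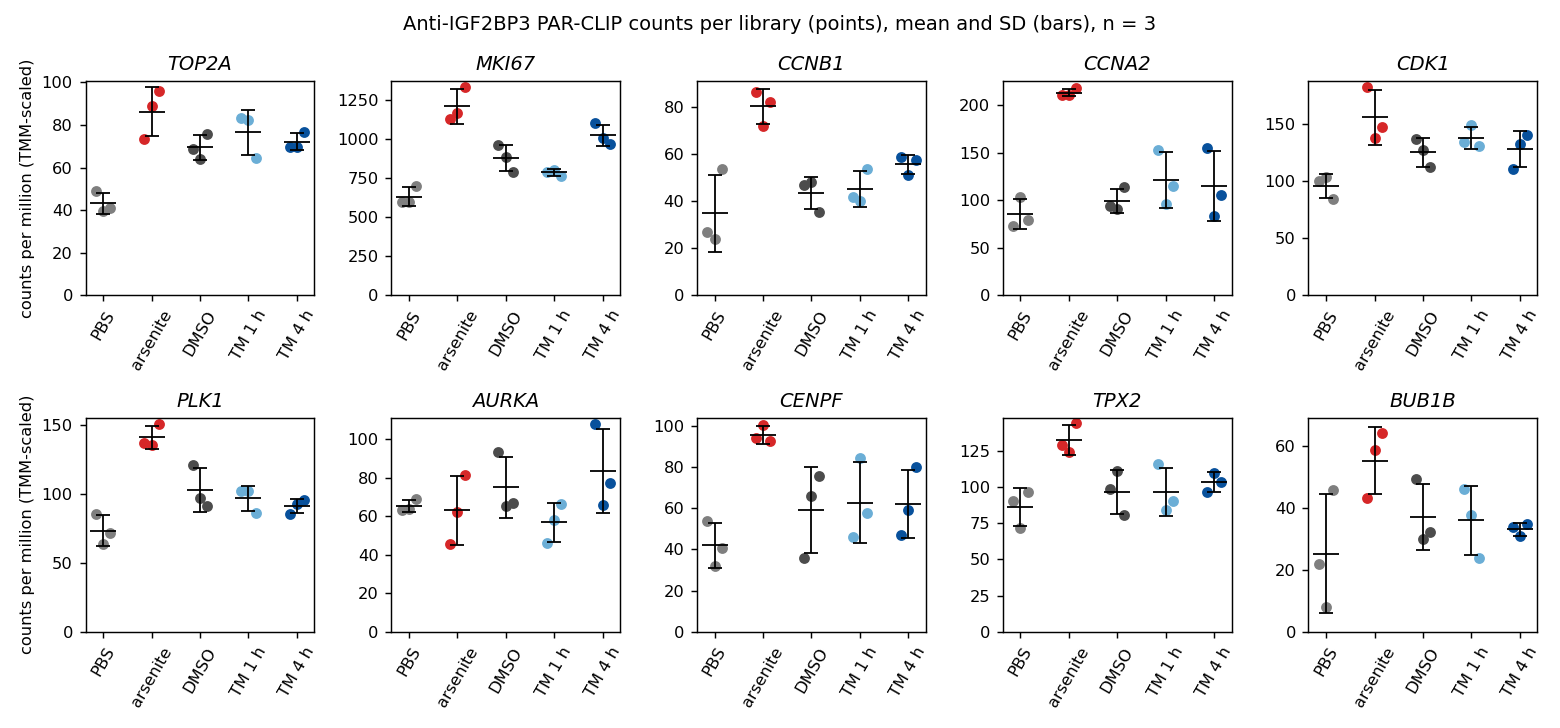
Level (TMM-scaled CPM) of each gene in the 15 anti-IGF2BP3 libraries, 3 per condition; points are libraries in replicate order and bars give the mean and SD, on axes that start at 0. Arsenite libraries stand above the PBS libraries for every gene except AURKA and, through 1 PBS library, BUB1B.

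Of the cyclins and their kinase, CCNA2, cyclin A2, which partners CDK2 and CDK1 from S phase into early mitosis, changed most among the 10. Its CPM were 73.1, 103 and 79.0 under PBS and 211, 211 and 218 under arsenite. The arsenite libraries agree closely and lie far above all others, the highest of which was TM 4 h replicate 1 at 155. The log2 change was 1.42 (SE 0.18, edgeR adjusted p = 1.27e-11), or 2.68-fold with a 95% confidence interval from 2.10-fold to 3.42-fold. CCNB1, cyclin B1, the partner that takes CDK1 through mitosis, stood at 26.8, 23.8 and 53.5 CPM under PBS and at 86.3, 72.0 and 82.0 under arsenite. It rose by 1.08 on the log2 scale (SE 0.27, edgeR adjusted p = 0.000819), with PBS replicate 3 nearer to the arsenite libraries than the other PBS libraries. Without PBS replicate 1 its adjusted p was 0.0528 and the call was lost. CDK1, the kinase itself, had 99.9, 103 and 84.1 CPM under PBS and 183, 137 and 147 under arsenite, a log2 change of 0.70 (SE 0.19, edgeR adjusted p = 0.00159). Its groups did not overlap.

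Among the other mitotic kinases the genes differed. PLK1, polo-like kinase 1, which acts at centrosomes, kinetochores and the cleavage furrow, rose from 85.3, 63.6 and 71.3 CPM to 137, 136 and 151 CPM. This was a log2 change of 0.91 (SE 0.20, edgeR adjusted p = 9.06e-05) without overlap. BUB1B encodes BubR1, a spindle checkpoint protein that restrains the anaphase-promoting complex, and had the fewest counts of the 10, with 9, 1 and 18 counts in the PBS libraries. At 21.9, 7.95 and 45.9 CPM under PBS and 43.1, 58.6 and 64.1 under arsenite its groups overlapped. Its log2 change of 0.94 (SE 0.32, edgeR adjusted p = 0.0127) was lost in DESeq2's Wald test (adjusted p = 0.13), without PBS replicate 1 (0.177) and without arsenite replicate 3 (0.0989). The size also rested on single PBS libraries: the log2 change was 0.68 (SE 0.37) without PBS replicate 1 and 1.64 (SE 0.43, edgeR adjusted p = 0.00265) without PBS replicate 3, or 1.60-fold and 3.11-fold beside 1.92-fold with all libraries.

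AURKA, Aurora A kinase, which matures centrosomes and spindle poles, did not pass. It had 63.4, 63.6 and 68.8 CPM under PBS, a narrow range, and 45.7, 62.0 and 81.1 under arsenite, so the treated libraries lay on both sides of the controls. The log2 difference was 0.04 (SE 0.25, edgeR adjusted p = 0.911), and the 95% confidence interval of the fold ran from 0.679 to 1.44. The fold estimates of all the other 9 genes lie above that interval. As a share of the summed counts of the 10 genes AURKA took 5.47%, 5.76% and 5.37% in the PBS libraries and 2.14%, 2.87% and 3.36% in the arsenite libraries. The share was lower in every arsenite library, where the summed counts of the other 9 genes, which make up the rest of the sum, were higher. AURKA itself differed by 0.04 on the log2 scale between the groups. In arsenite replicates 1 and 2, at 45.7 and 62.0 CPM, it also lay below every PBS library. The share therefore adds no separate evidence about AURKA.

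TPX2, the spindle assembly factor that binds and activates Aurora A, did rise: its CPM were 90.2, 71.5 and 96.8 under PBS and 129, 124 and 144 under arsenite. The groups did not overlap, and the log2 change was 0.58 (SE 0.19, edgeR adjusted p = 0.0118), the smallest among the 9 genes that passed. It missed the threshold in DESeq2's Wald test (adjusted p = 0.11), without PBS replicate 1 (0.0625) and without arsenite replicate 3 (0.0983).

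The remaining 3 genes act on chromosomes. MKI67 encodes Ki-67, the proliferation marker that coats mitotic chromosomes, and provided 53.3% ± 1.74 (SD, n = 3) of the counts of the 10 genes under PBS. It rose from 595, 596 and 701 CPM to 1129, 1167 and 1335 CPM, a log2 change of 0.94 (SE 0.081, edgeR adjusted p = 1.13e-20). This standard error is the smallest of the 10. TOP2A, the topoisomerase that untangles sister chromatids, went from 48.8, 39.7 and 40.8 CPM to 73.6, 88.8 and 96.2 CPM, again without overlap, with a log2 change of 1.01 (SE 0.25, edgeR adjusted p = 0.000742). CENPF, a large kinetochore and microtubule-binding protein, had 53.6, 31.8 and 40.8 CPM under PBS and 93.9, 100 and 92.4 under arsenite. Its arsenite libraries were tight and all above PBS, at a log2 change of 1.08 (SE 0.25, edgeR adjusted p = 0.000211).

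The sum of the 9 genes other than MKI67 followed the same course, with 534 ± 38.7 counts per 1000000 under PBS and 980.2 ± 50.7 under arsenite (SD, n = 3 each). MKI67 took nearly the same share of the 10-gene sum in both conditions, 53.3% and 54.2% (exact two-sided permutation p = 0.6).

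**Figure D2:**
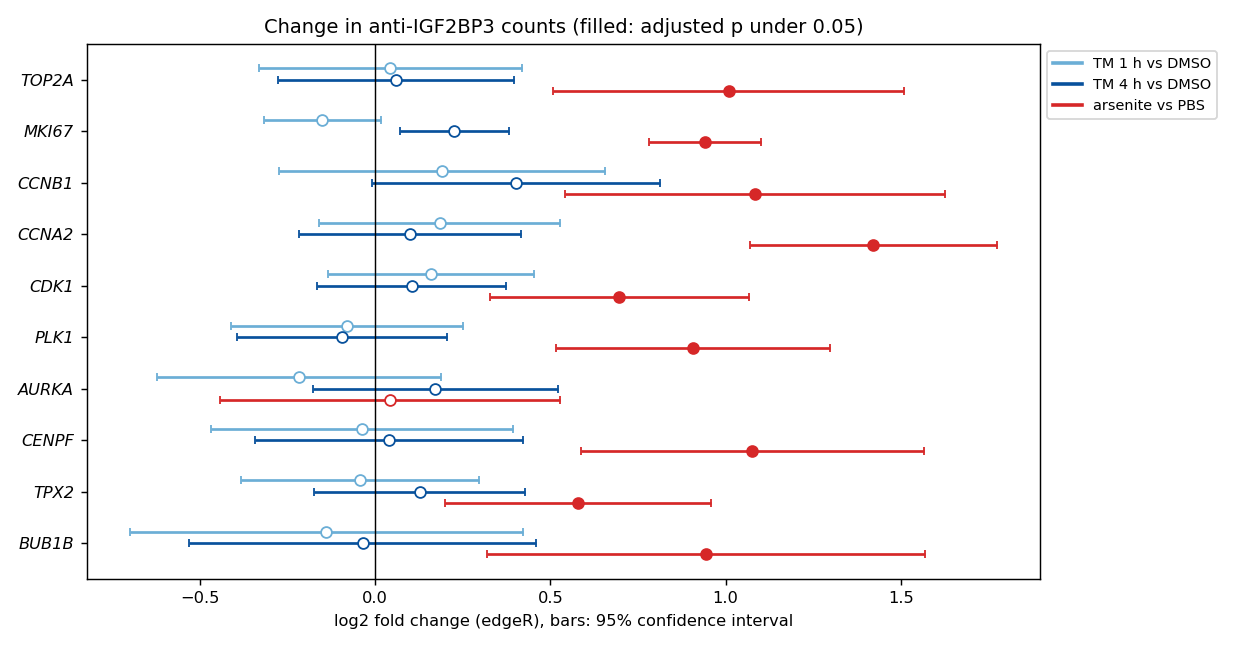
Log2 fold change of each gene with its 95% confidence interval for TM 1 h against DMSO, TM 4 h against DMSO and arsenite against PBS, from edgeR fits; filled points passed an adjusted p of 0.05. All 9 filled points belong to arsenite, and the TM intervals of 9 genes reach across 0 at both times, the exception being MKI67 at 4 h.

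At TM 1 h, 0 of the 10 genes passed against DMSO. An unadjusted p under 0.05 was seen for 0 of the 10 and for 806 of all 8343 genes tested. DESeq2 also called 0 of the 10. The background was low, with 0.551% of 8343 genes passing edgeR's test in either direction. The log2 differences ran from -0.22 (AURKA, SE 0.20, edgeR adjusted p = 0.801) to 0.19 (CCNB1, SE 0.23, edgeR adjusted p = 0.864). In fold terms the 95% confidence interval ran from 0.802 to 1.01 for MKI67, which had the most counts, and from 0.616 to 1.34 for BUB1B, which had the fewest, and changes inside these intervals remain possible. The TM 1 h samples had their drug for a shorter time than the DMSO samples had their vehicle.

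At TM 4 h, 0 of the 10 genes passed in edgeR and 0 in DESeq2, where 5.11% of all genes tested did in edgeR. MKI67 was the only gene of the 10 with an unadjusted p under 0.05, where 1450 of all 8343 genes tested had one. It measured 963, 885 and 793 CPM in the DMSO libraries and 1101, 1006 and 972 in the TM 4 h libraries. Every treated library lay above every control, by 0.23 on the log2 scale (SE 0.078, edgeR adjusted p = 0.0779). Its adjusted p was 0.0434 with library totals in place of TMM factors, 0.0289 among genes averaging at least 50 counts and 0.0424 without DMSO replicate 1, which put it past the threshold. CCNB1 also did not overlap, at 46.6, 48.0 and 35.4 CPM against 58.4, 51.0 and 57.3, with a log2 difference of 0.40 (SE 0.21, edgeR adjusted p = 0.304). These 2 of 10 genes compare with 10.6% of all genes whose TM 4 h libraries all lay above DMSO.

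Between the 2 tunicamycin times 11.6% of all genes passed in either direction and 5.6% rose. Of the 10 genes 1 passed, near the share in either direction, and this was MKI67. Its CPM were 791, 806 and 763 at 1 h against the 4 h values above, the ranges were far apart, and the log2 change was 0.38 (SE 0.082, edgeR adjusted p = 0.000704). Libraries that did not overlap with higher values at 4 h were seen for 1 gene of the 10, MKI67, and for 14.5% of all genes. AURKA had a difference of the same size, 0.39, but a larger error (SE 0.20, edgeR adjusted p = 0.215), with 46.3, 57.7 and 66.2 CPM at 1 h and 108, 65.7 and 77.3 at 4 h. Its TM 4 h replicate 1 stood above the rest. MKI67 made up 51.9% ± 1.02 of the 10-gene counts at 1 h and 58.0% ± 1.92 at 4 h (SD, n = 3 each), which restates its change against the other genes.

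Whether the 10 genes responded differently to the 2 stresses was tested directly, as the arsenite change over PBS minus the TM 4 h change over DMSO. Of the 10 genes 5 passed, all with the larger change under arsenite, where 18.3% of 7796 genes passed in either direction and 8.57% in that direction. CCNA2 differed by 1.32 (SE 0.25, edgeR adjusted p = 3.45e-05), CENPF by 1.03 (SE 0.32, 0.016), PLK1 by 0.99 (SE 0.24, 0.00179), TOP2A by 0.95 (SE 0.30, 0.0174) and MKI67 by 0.71 (SE 0.12, 5.7e-06), all on the log2 scale. DESeq2 called 3 of these and not TOP2A (adjusted p = 0.0792) or CENPF (0.0687). Both genes also fell short in edgeR without DMSO replicate 3 (adjusted p = 0.0657 and 0.0948) and without PBS replicate 3 (0.0701 and 0.0727), and TOP2A without arsenite replicate 3 (0.0652). CDK1 at 0.58 (SE 0.23, edgeR adjusted p = 0.0629), BUB1B at 0.97 (SE 0.41, 0.0853), CCNB1 at 0.68 (SE 0.35, 0.175) and TPX2 at 0.44 (SE 0.24, 0.206) had the same sign without passing. CDK1 passed without DMSO replicate 3 (adjusted p = 0.0452) and without arsenite replicate 2 (0.0407), and CCNB1 and BUB1B passed without PBS replicate 3 (0.042 and 0.0155). AURKA differed by -0.13 (SE 0.30, edgeR adjusted p = 0.812). The stresses differ in agent, duration, vehicle and library set, which cannot be told apart in this comparison.

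Across all 5 conditions, PBS had the lowest mean and arsenite the highest for the same 9 genes, an order that 10.6% of all genes shared. For MKI67 the order from low to high was PBS at 630.5 ± 60.8 CPM, TM 1 h at 787 ± 21.6, DMSO at 880.4 ± 85.2, TM 4 h at 1026 ± 67.1 and arsenite at 1211 ± 110 (SD, n = 3 each), and of these TM 1 h and DMSO overlapped while the others did not overlap with their neighbours. For AURKA the order was different, from 56.7 ± 9.99 at TM 1 h through 62.9 ± 17.7 under arsenite, 65.2 ± 3.07 under PBS and 75.1 ± 15.8 under DMSO to 83.6 ± 21.8 at TM 4 h, and neighbours overlapped throughout.

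The controls were not alike. All 10 genes had a higher mean under DMSO than under PBS, by 1.12-fold for TPX2 to 1.61-fold for TOP2A, while 49.9% of all genes did. The DMSO libraries lay wholly above the PBS libraries for 4 of the 10 (TOP2A, MKI67, CDK1 and PLK1) and for 8.98% of all genes. Set against DMSO in place of PBS, the arsenite means were higher for 9 genes, from 1.24-fold for TOP2A and CDK1 to 2.15-fold for CCNA2, and 0.838-fold for AURKA. The arsenite libraries lay wholly above the DMSO libraries for 7 of the 10 and for 24.7% of all genes. No test was made across library sets.

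The 10 genes varied together over the 15 anti-IGF2BP3 libraries, apart from AURKA. Pearson's r between log2 CPM had a median of 0.679 over the 36 pairs without AURKA and of -0.086 over the 9 pairs with it, and the closest pair was MKI67 and CCNB1 at 0.874. The 15 points share the conditions and library sets, so these values only describe the libraries. No median was computed over pairs of other genes, so these correlations do not show a trait particular to the 10. Of 3333 other genes averaging at least 50 counts, the 2 whose log2 CPM followed the mean pattern of the 10 most closely were ENSG00000086589_12 (r = 0.934) and ENSG00000109971_14 (r = 0.933), which are given by their identifiers because the files do not pair them with names.

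The control immunoprecipitation did not set the 10 genes apart at this depth. The 5 IgG libraries held 10 to 24 counts of the 10 genes each, or 1272 to 1839 per 1000000. This lay within the range of 1065 to 2328 per 1000000 in the anti-IGF2BP3 libraries of all conditions together. Within conditions, IgG lay above every anti-IGF2BP3 library under PBS (1371) and at TM 1 h (1839). It lay below every one under DMSO (1272), arsenite (1388) and at TM 4 h (1386). The exact 95% Poisson interval of the PBS IgG library, 879 to 2040 per 1000000, covers most of the range from 1065 to 2328. Such intervals hold counting error only. None of the 10 was called above IgG by edgeR with library totals and condition as a covariate (0 of 10, with 1, TOP2A, at an unadjusted p under 0.05), and neither were most genes, with 0.105% of 7592 passing. How many of all genes had an unadjusted p under 0.05 here was not counted. Another 130 of the 7592 were called below IgG, none of them among the 10. With TMM factors, which moved the median log2 difference of all genes from 0.07 to 0.71, TOP2A (edgeR adjusted p = 0.0305) and MKI67 (0.0129) passed. Over all 7592 genes, 602 were called above IgG with these factors. TOP2A had 0 counts in all IgG libraries, and 70.9 per 1000000 in the pooled anti-IGF2BP3 libraries. A count of 0 in the pooled IgG libraries allows up to 57.4 per 1000000 by a floor of 3 counts. The exact two-sided 95% Poisson limit allows up to 70.6. The pooled anti-IGF2BP3 value has counting error too, so by this stricter limit TOP2A cannot be told apart from IgG. In the PBS libraries alone TOP2A had 47.2, 38.3 and 39.7 per 1000000, below both limits. For MKI67, with 41 IgG counts, the ratio of pooled anti-IGF2BP3 to pooled IgG was 1.17, and the IgG value of 785 per 1000000 had an exact 95% interval from 563 to 1064. The ratio was below 1 for PLK1 (0.581, on 9 IgG counts), TPX2 (0.886, on 6) and CCNB1 (0.918, on 3). It was above 1 for AURKA (1.19, on 3), CCNA2 (1.29, on 5), CDK1 (1.33, on 5), BUB1B (1.92, on 1) and CENPF (3.58, on 1). For all 9 genes with an IgG count the anti-IGF2BP3 value lay inside the exact 95% interval of the IgG value, which ran from 11.8 to 168 per 1000000 for CCNB1 and AURKA and from 0.484 to 107 for BUB1B and CENPF. A change under arsenite in IgG libraries could not be tested with 1 library per condition: the 10-gene sums were 1371 per 1000000 under PBS and 1388 under arsenite.

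Clusters could not be compared between the antibodies either. The authors' cluster lists place 813 clusters in the 10 genes over the 15 anti-IGF2BP3 libraries and 0 in the 5 IgG libraries, whose lists hold 33 to 180 clusters in all. The deepest IgG library had 17503 gene counts, and an anti-IGF2BP3 library of 130478 counts, PBS replicate 2, also had 0. MKI67 held 457 of the 813, CDK1 80, CCNA2 65, PLK1 56, TPX2 47, AURKA 35, CCNB1 23, TOP2A 22, CENPF 15 and BUB1B 13. In the 8 genes whose strand RefSeq gave, 0 clusters lay on the opposite strand. CDK1 and TPX2 had a cluster in 13 libraries each and MKI67 in 14, while CENPF had one in 5, none with fewer than 623476 gene counts.

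**Figure D3:**
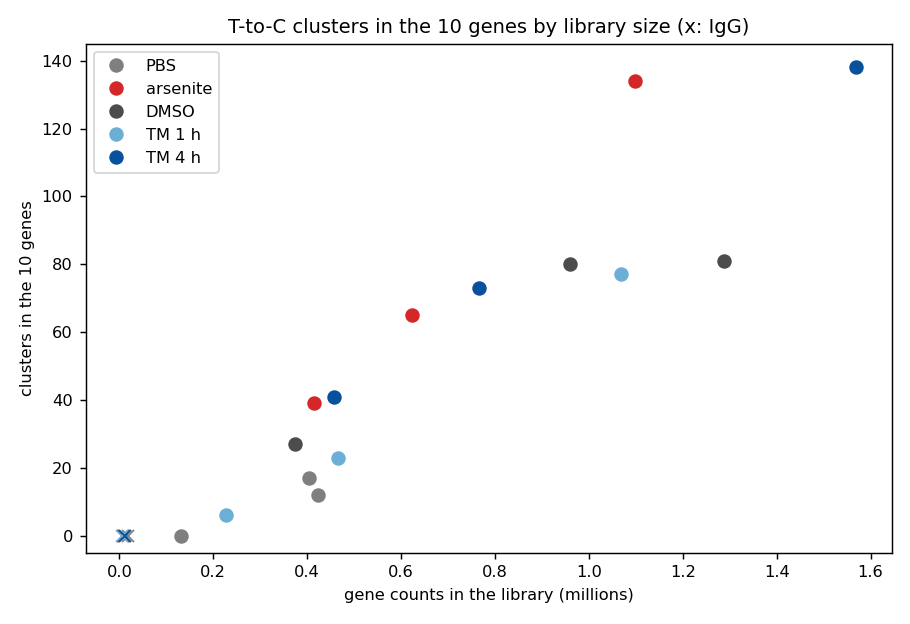
Clusters in the 10 genes (y axis) against the gene counts of the library (x axis), with circles for 15 anti-IGF2BP3 libraries and crosses for 5 IgG libraries. In every condition except PBS a larger anti-IGF2BP3 library holds more clusters, while the PBS libraries of 423906 and 403352 counts hold 12 and 17 clusters, where the arsenite library of 414033 counts holds 39.

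The number of clusters depended on depth, so libraries of like size were set side by side. PBS replicates 1 and 3, with 423906 and 403352 gene counts, had 12 and 17 clusters in the 10 genes over 732 and 807 bases. Arsenite replicate 1, with 414033 counts, had 39 over 1696 bases. DMSO replicate 1 (374238 counts) had 27 over 1400 bases, TM 1 h replicate 2 (465032 counts) had 23 over 1366 bases and TM 4 h replicate 1 (457179 counts) had 41 over 2102 bases. In this comparison, which rests on 1 or 2 libraries a condition and has no test, PBS was lowest and TM 4 h and arsenite highest. Per 1000000 gene counts the means were 23.5 ± 21.5 for PBS, 49.3 ± 22.8 for TM 1 h, 72.8 ± 10.2 for DMSO, 91.0 ± 3.85 for TM 4 h and 107 ± 14.1 for arsenite (SD, n = 3 each). Scaling to counts did not remove depth in every condition. From the smallest to the largest library the rate was 26.3, 49.5 and 72.0 at TM 1 h. Under arsenite it was 94.2, 104 and 122. It did not rise steadily under DMSO (72.1, 83.3 and 62.9) or at TM 4 h (89.7, 95.3 and 88.0). PBS replicate 2, the smallest library, had 0 clusters in the 10 genes out of 3579 in all, which lowers the PBS mean. The order of the means therefore also carries depth and was not tested. CCNA2 had 1 cluster in all PBS libraries together, in replicate 3, and 4, 7 and 13 in the arsenite libraries. AURKA had 1, 0 and 1 in the PBS libraries and 0, 0 and 8 in the arsenite libraries. The arsenite libraries held 414033, 623476 and 1098488 gene counts, and both genes had most clusters in the deepest. These cluster numbers therefore add nothing on the spread of AURKA in CPM.

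**Figure D4:**
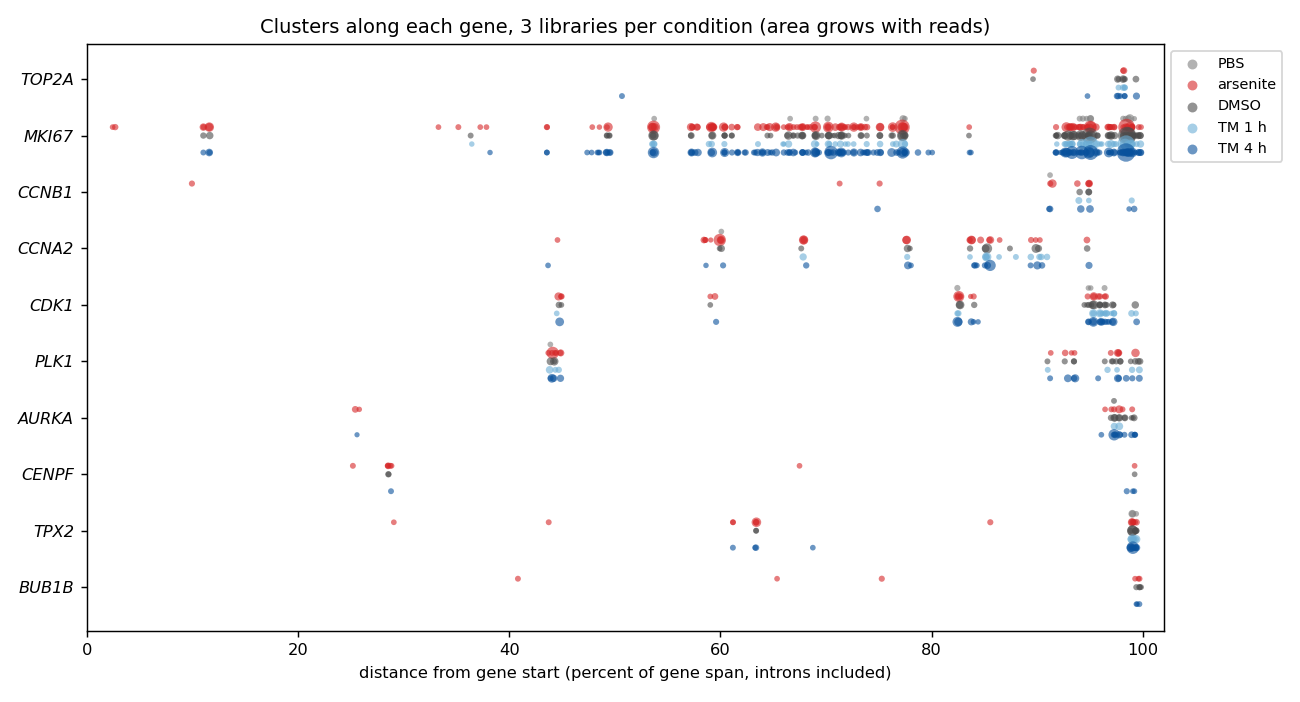
Position of each cluster along its gene as a percent of the gene span from its start, introns included, with 1 line of points per condition (3 libraries each) and point areas that grow with the reads of the cluster. Clusters of TOP2A, AURKA, TPX2 and BUB1B lie mostly at the far right, near the gene end. Those of MKI67 and CCNA2 are spread more widely but lie mostly in the later part of the gene, with median positions at 73.6% and 84.0% of the span.

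Along the genes, most clusters of 7 of the 10 lay near the 3′ end. The share over all genes was not computed, so this does not show a trait particular to these genes. A site called in several libraries counts each time, and the 35 AURKA clusters, for example, fell into 6 regions. In AURKA 91.4% of clusters lay in the last 10% of the gene span, in TOP2A 86.4%, in CCNB1 82.6%, in BUB1B 76.9% and in TPX2 70.2%. PLK1 at 67.9% and CDK1 at 65.0% followed, with a further group of clusters in PLK1 near the middle of the gene, where the site printed above lies 6410 bases before the end. MKI67 with 38.7%, CENPF with 33.3% and CCNA2 with 15.4% had most of theirs upstream of the last 10%. Their median positions were at 73.6%, 28.8% and 84.0% of the span. MKI67 clusters fell into 66 separate regions, 43 of them present in 2 libraries or more. Spans include introns, so these shares do not say how clusters divide between coding sequence and untranslated ends.

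The letters of the clusters differed between MKI67 and the other 9 genes. At least 1 of CATA, CATC and CATT occurred in 44.6% of MKI67 clusters, in 55.1% of the clusters of the other 9 genes and in 64.0% of all 412123 clusters of the libraries. ACAC, an element known from zipcode-type binding, occurred in 35.2%, 10.4% and 21.5%, and GGAC, the core of the m6A consensus, in 22.8%, 12.9% and 13.6%. T made up 22.5% of the MKI67 letters, 31.3% of those of the other 9 and 31.6% over all clusters. Clusters of 1 site called in several libraries are counted each time, and the median length was 52 bases for MKI67, 48 for the other 9 and 50 overall. Among clusters of 25 to 35 bases the order was the same, with a CATA, CATC or CATT in 21.8% for MKI67, 40.8% for the other 9 and 46.0% overall.

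The share of T-to-C conversions among the authors' conversion and non-conversion events in clusters of the 10 genes was 10.2% and 8.99% in PBS replicates 1 and 3, and 11.9%, 11.3% and 11.1% in the arsenite libraries. All arsenite values lay above both PBS values, by 1.83 percentage points between means of 11.4 ± 0.437 (SD, n = 3) and 9.60 ± 0.867 (SD, n = 2), with an exact two-sided permutation p of 0.2, the smallest this design allows. PBS replicate 2 had no cluster to enter. Averaged over genes in place of reads the difference was 0.344 percentage points. The share was 10.6%, 9.33% and 9.71% under DMSO, 7.42%, 8.81% and 9.06% at TM 1 h and 12.4%, 10.7% and 9.72% at TM 4 h. TM 1 h lay wholly below DMSO, with a difference of -1.46 percentage points (exact two-sided permutation p = 0.1, the smallest possible), and TM 4 h overlapped with DMSO at a difference of 1.05 (exact two-sided permutation p = 0.2). Adjusted by Benjamini-Hochberg over the 3 comparisons, each permutation p was 0.2. Averaged over genes, TM 1 h overlapped with DMSO, at a difference of -1.21 percentage points (exact two-sided permutation p = 0.2, unadjusted). The lowest TM 1 h share, 7.42% in replicate 1, rested on 6 clusters. Over all clusters of a library the share was also higher under arsenite (8.81%, 8.66% and 8.63%) than under PBS (7.97%, 8.13% and 7.95%).

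Related genes could be read from clusters alone, since identifiers in the count table are not paired with names. Of 38 other genes of G2 phase and the spindle, among them CCNB2, AURKB, BUB1 and KIF11, 12 and 11 held a cluster in PBS replicates 1 and 3 and 18 in arsenite replicate 1 of like depth, with 30, 22 and 35 clusters over 1625, 1238 and 1755 bases. Of 24 genes of the G1/S transition and DNA replication, among them the MCM helicase genes, PCNA and CCNE1, 12, 13 and 12 did, with 66, 63 and 58 clusters over 4697, 4448 and 3846 bases. Of 6 genes that brake the cycle, among them the p21 gene CDKN1A, 3, 4 and 3 did, with 15, 17 and 15 clusters over 2140, 2371 and 2128 bases. Per 1000 clusters of the library the G2 and spindle genes had 1.54 ± 0.245 under PBS and 2.79 ± 0.480 under arsenite, and the G1/S genes 4.64 ± 1.07 and 3.51 ± 0.168 (SD, n = 3 each). These rates also moved with depth. The G1/S rate was 5.87 in PBS replicate 2, the smallest library, beside 4.02 and 4.03 in replicates 1 and 3. It fell as depth rose under DMSO (4.86, 3.54 and 2.91). The G2 and spindle rate rose with depth under arsenite (2.24, 3.01 and 3.11). Under DMSO, TM 1 h and TM 4 h the G2 and spindle genes had 2.47 ± 0.212, 2.09 ± 0.718 and 2.53 ± 0.325. These are descriptions without a test, and PBS lay below DMSO here as it did for the 10 genes.

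The promoters of most of the genes hold letters known from G2/M control, which were looked up after the results had been seen. A link between these letters and the changes in counts was not tested. RefSeq promoter windows (GRCh38.p14, 250 bases before to 50 after the gene start) were at hand for 8 of the 10, without AURKA and TPX2. CCAAT, searched on both strands (ATTGG on the other), occurred in 7 of the 8 and in the windows of 39.7% of 27305 genes. The cell cycle gene homology region has the core TTTGAA, read as its reverse complement on the other strand, and a variant is TTTAAA. At least 1 of these elements occurred in 7 of the 8 and in 27.9% of genes. Examples, with the element in capitals, are the following windows.
CCNB1: agcagtgcggggTTTAAAtctgaggctagg
PLK1: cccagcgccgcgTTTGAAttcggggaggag
BUB1B: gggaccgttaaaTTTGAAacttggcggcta
They lie at chr5:69167108-69167137, chr16:23678848-23678877 and chr15:40161034-40161063, all on the plus strand, with the element beginning 30, 29 and 23 bases before the gene start. CCNA2, the gene that changed most, held CCAAT but neither of the other elements in its window. A match only says that these letters are there.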

How the data were processed

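The authors deposited whole-number counts per gene, 1 column per library (all columns mapped by name, 0 left over), and 1 list of clusters per library with its reads and its converted and unconverted events, per the file headers. The submitters' processing notes name bcl2fastq 2.20.0.422, UMI-tools 1.1.1, Trimmomatic 0.30, Bowtie 0.12.7 and featureCounts 2.0.1 and the builds GRCh38.p13 and hg38. The cluster caller, the gene annotation and the strand setting of counting are not given in the sources used here. Clusters were called per library, and the 525 clusters that lay inside RefSeq promoter windows (GRCh38.p14) had identical letters in all 525, which checks the build. The IgG cluster lists of the PBS and arsenite set carry each other's names, and the sample they are attached to was followed.

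The test was edgeR 4.0.16 under R 4.3.3 (filterByExpr, TMM factors, quasi-likelihood, two-sided) on the counts of all genes, with Benjamini-Hochberg adjustment over all genes tested and a threshold of 0.05. The 9 DMSO and TM libraries, the 6 PBS and arsenite libraries and the 12 libraries of the difference between stresses had a fit each. The SE is the log2 fold change divided by the root of F, and confidence intervals use the t distribution of the fit. DESeq2 1.42.0 was an alternative, as were other scalings, filters, blocks and leaving out each replicate. Scripts were tested on simulated data. Exact permutation tests used scipy 1.17.1. Same-numbered libraries did not deviate together (correlations of deviations from -0.0747 to 0.0629), so numbers were not taken to pair samples.

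The 10 genes are named by their rule, called or not. Sites, motifs and the genes most like them were named by fixed rules, while the promoter elements and the shares within the 10-gene sum were added after results had been seen. Gene lists were read through RefSeq gene positions (38 of 38, 24 of 24, 6 of 6, 7 of 7 and 4 of 4 located) since no table pairs the identifiers with symbols, so their planned tests on counts were not run. The genes and lists were chosen with earlier results of these data known.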

Additional observations from a re-analysis of the deposited data

Results flagged for a closer look

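The arsenite change exceeded the TM 4 h change, tested as the difference itself in edgeR, for CCNA2 (1.32 on the log2 scale), CENPF (1.03), PLK1 (0.99), TOP2A (0.95) and MKI67 (0.71). Groups held 3 libraries, too few for the check for single outlying samples.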

How the results depend on the processing

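Against PBS, the number of the 10 genes that rose under arsenite was 9 in edgeR, 7 in DESeq2, 5 of the 5 that had a mean count of at least 50, and 6 to 9 when each replicate was left out. For the difference between the stresses it was 5, with 3 in DESeq2 and 4 to 6 with a replicate left out. At TM 4 h it was 0, with 1 (MKI67) under library totals, 1 under a mean count of at least 50 and 0 to 1 with a replicate left out. It was 0 at TM 1 h and 1 between the TM times under every alternative run. Over all genes tested, edgeR and DESeq2 called 46 and 6 at TM 1 h, 426 and 151 at TM 4 h, 967 and 502 between the TM times, 2310 and 1233 under arsenite and 1427 and 854 for the difference between stresses, and edgeR called 13 to 51, 178 to 447, 523 to 1022, 1714 to 2392 and 1052 to 1377 with a replicate left out. Within the library set of replicates 1 and 2 the first 3 of these counts were 16, 129 and 488, and a mean count of at least 50 left 1380 under arsenite. With the replicate block the counts among the 10 genes were 0, 0, 1, 9 and 5, the same as without it, and the pairing check gave no ground for the block. With IgG as the control 0 of the 10 genes passed, and 2 of the 10 did with TMM factors. Clusters per 1000000 gene counts at TM 4 h were 91.0 and, with at least 5 reads per cluster, 85.6. The arsenite difference in conversion share was 1.83 percentage points, and 0.344 averaged over genes.

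None of the differences that changed sign had passed the test, and none passed it with the other sign. With a replicate left out, the log2 differences at TM 1 h against DMSO that changed sign ran from -0.036 to 0.23 for TOP2A, -0.055 to 0.32 for CCNB1, -0.16 to 0.046 for PLK1, -0.24 to 0.17 for CENPF, -0.21 to 0.11 for TPX2, -0.26 to 0.24 for BUB1B. Within the library set of replicates 1 and 2 the difference at TM 1 h against DMSO was -0.23 for CCNB1, 0.33 for CENPF, 0.17 for BUB1B. In DESeq2 the difference at TM 1 h against DMSO was 0.034 for CENPF. With a replicate left out, the log2 differences at TM 4 h against DMSO that changed sign ran from -0.013 to 0.16 for TOP2A, -0.070 to 0.25 for CCNA2, -0.26 to 0.24 for CENPF, -0.040 to 0.28 for TPX2, -0.14 to 0.086 for BUB1B. Within the library set of replicates 1 and 2 the difference at TM 4 h against DMSO was -0.077 for CDK1, -0.050 for CENPF, -0.030 for TPX2. With a replicate left out, the log2 differences at TM 4 h against TM 1 h that changed sign ran from -0.17 to 0.090 for TOP2A, -0.25 to 0.051 for CCNA2, -0.14 to 0.0028 for CDK1, -0.14 to 0.034 for PLK1, -0.22 to 0.27 for CENPF, -0.28 to 0.22 for BUB1B. In DESeq2 the difference at TM 4 h against TM 1 h was -0.028 for TOP2A. With no filter on low counts the difference at TM 4 h against TM 1 h was -0.0018 for TOP2A. Within the library set of replicates 1 and 2 the difference at TM 4 h against TM 1 h was -0.24 for TOP2A, -0.38 for CENPF, -0.34 for BUB1B. With library totals the difference at TM 4 h against TM 1 h was 0.0091 for PLK1. At a mean count of at least 50 the difference at TM 4 h against TM 1 h was 0.024 for PLK1. With a replicate left out, the log2 differences under arsenite that changed sign ran from -0.24 to 0.18 for AURKA. In DESeq2 the difference under arsenite was -0.013 for AURKA. With the replicate block the difference under arsenite was -0.025 for AURKA. Replicates 1 and 2 of the DMSO and TM groups form the only set with more than 1 library of each of these groups, and PBS and arsenite lie in a single set. Depth sets the limits: the PBS libraries hold 1 to 18 counts of BUB1B, and the IgG libraries 0 to 9 counts of each gene other than MKI67 over all 5.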
